A study of Mus musculus with 6 samples.

Results

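The genes described here are 9 that encode giant and cross-linking proteins of the sarcomere, the contractile unit of muscle: titin (Ttn), nebulin (Neb), obscurin-like 1 (Obsl1), the 3 myomesins (Myom1, Myom2 and Myom3), the myosin-binding C proteins of slow and fast muscle (Mybpc1 and Mybpc2) and myosin-binding protein H (Mybph). They were taken by symbol from the 37477 Ensembl genes of the count table, and each symbol matched 1 row. They were chosen by 2 measured values, the share of counts that Ttn takes and the lower Myom2 counts in knockout muscle. The differences between genotypes below are therefore given as values, without a test.

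A titin molecule runs from the Z-disc at the sarcomere's edge to the M-band at its centre and works as a spring and a scaffold for the myosin filament. Nebulin lies along the actin filament from the Z-disc inwards. Myomesins tie neighbouring myosin filaments and titin ends together in the M-band, where obscurin-like 1 also binds, and myosin-binding C proteins sit on the myosin filament in stripes on each side of the M-band. Several of these proteins come in forms that differ between fast and slow fibres.

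RNA was measured by sequencing in muscle labelled quadriceps, the large muscle of the front of the thigh, from 20-week-old C57BL/6 mice. The 3 MERKO libraries came from mice with a muscle-specific estrogen receptor alpha -/- genotype, and the 3 WT libraries came from wild-type mice. The sources used here do not give the driver of the deletion, the deleted part or whether each library came from 1 animal, so the spread given below is between libraries and may be technical. Total counts ranged from 7809612 to 8560244 in MERKO and from 7388365 to 7733401 in WT. Genes of the mitochondrial genome took 6.14% to 9.53% of counts in MERKO, where replicate 1 was highest, and 6.94% to 7.46% in WT. Esr1, the targeted gene, had 22, 16 and 16 counts in MERKO replicates 1, 2 and 3 and 50, 41 and 44 counts in WT replicates 1, 2 and 3. Levels are given in CPM, counts scaled to a common library total. Skeletal muscle markers were abundant: Acta1, the actin of skeletal muscle, was at 15403 to 16205 CPM in MERKO and 13626 to 17038 CPM in WT. Quadriceps of the mouse is known as a mainly fast muscle. Here Myh7, the slow myosin heavy chain, took 59.7% ± 1.11 of all adult heavy chain counts in MERKO and 60.6% ± 2.39 in WT (SD, n = 3 each).

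Titin had more counts than any other gene in the table. Ttn (ENSMUSG00000051747) lies on chromosome 2 from 76703980 to 76982547 on the minus strand of GRCm38, the assembly that mm10 names, and its merged exons span 116825 bases; the longest annotated transcript has 347 exons. Ttn had 1238383, 1215204 and 1030971 counts in MERKO replicates 1, 2 and 3, against 1301751, 1121533 and 1142794 counts in WT replicates 1, 2 and 3. As a share of all counts these were 14.5%, 14.5% and 13.2% in MERKO and 16.8%, 15.2% and 14.8% in WT. On this scale every MERKO library lay below every WT library, with means of 14.1% ± 0.743 in MERKO and 15.6% ± 1.09 in WT (SD, n = 3 each). With mitochondrial genes out of the total the groups overlapped, at 15.99% in MERKO replicate 1 and 15.98% in WT replicate 3. After TMM scaling, a correction for the make-up of each library, Ttn was at 146544, 146828 and 127649 CPM in MERKO and at 174370, 153362 and 144868 CPM in WT. On this scale the groups overlapped, since WT replicate 3 lay below MERKO replicates 1 and 2. The log2 difference of MERKO minus WT was -0.17 ± 0.09 (SE) over all 6 libraries and -0.09 without WT replicate 1. All 9 genes together took 16.4% ± 0.874 of MERKO counts and 18.05% ± 1.14 of WT counts, and the 8 genes other than Ttn took 2.31% ± 0.144 and 2.45% ± 0.062 (MERKO and WT; SD, n = 3 each). The difference for all 9 was -1.67 percentage points, and -1.03 without WT replicate 1. In bulk muscle, fewer fibres of a type and less RNA per fibre cannot be told apart.

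The stretch of 250 bases upstream of the RefSeq start is shown for 3 of the genes. Ttn was taken because it carries the share of counts, and Mybpc2 because it had the largest positive difference. Mybph was taken because it alone of the 7 members with such a stretch held the AGGTCA motif searched for. Sequences are from RefSeq (GRCm38.p6), 5′ to 3′ on the gene's strand. Capitals mark a MEF2 box in Ttn, and in Mybph the reverse complement of AGGTCA followed by the E-box CAGCTG; no motif was marked in Mybpc2.
Ttn, chr2:76982548-76982797, minus strand: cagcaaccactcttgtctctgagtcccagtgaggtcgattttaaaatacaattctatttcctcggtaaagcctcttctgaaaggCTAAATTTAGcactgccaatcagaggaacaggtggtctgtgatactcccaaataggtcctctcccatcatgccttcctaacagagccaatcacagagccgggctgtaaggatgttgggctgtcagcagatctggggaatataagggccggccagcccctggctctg
Mybpc2, chr7:44524670-44524919, minus strand: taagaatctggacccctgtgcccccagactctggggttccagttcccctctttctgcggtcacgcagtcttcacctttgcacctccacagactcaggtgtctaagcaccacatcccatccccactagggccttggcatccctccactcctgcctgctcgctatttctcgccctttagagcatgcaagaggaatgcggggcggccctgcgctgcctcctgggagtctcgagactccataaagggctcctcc
Mybph, chr1:134193198-134193447, plus strand: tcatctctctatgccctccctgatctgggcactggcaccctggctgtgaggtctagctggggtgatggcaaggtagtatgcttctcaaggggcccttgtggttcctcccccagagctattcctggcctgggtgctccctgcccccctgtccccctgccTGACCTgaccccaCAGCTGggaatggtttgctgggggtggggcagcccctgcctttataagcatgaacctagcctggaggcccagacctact

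Upstream windows were found for 7 of the 9 genes, those named above with Obsl1, Myom1, Myom3 and Mybpc1; Neb and Myom2 were not in the table. All motifs were searched on both strands. The full estrogen response element GGTCANNNTGACC, the sequence that estrogen receptor alpha is known to bind, was in none of the 7 windows and in 0.0639% of all 32851 windows of the same length. Its arm AGGTCA, which overlaps the full element, was in Mybph alone and in 14.02% of all windows. The shorter GGTCA was in Mybph, Mybpc2 and Myom1 and in 35.2% of all windows. The MEF2 box, bound by a family of muscle transcription factors, was in Ttn and Myom3 and in 2.92% of all windows. The CArG box, bound by serum response factor, was in Myom1 and in 1.47% of all windows. The Myom1 window, from 71019307 to 71019556, lies inside the annotated span of the gene, which starts at 71002633 on the plus strand. The E-box CAGCTG, a form bound by myogenic factors, was in Obsl1, Mybpc1 and Mybph and in 13.0% of all windows. A match describes letters and not a bound site.

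Per kilobase of exon the 9 genes ran over a wide range of levels. Ttn stood highest, at 1201 ± 94.1 CPM per kb in MERKO and 1348 ± 129.998 CPM per kb in WT. Mybpc1 followed at 745 ± 39.8 CPM per kb in MERKO and 781 ± 56.9 in WT, and Neb at 646 ± 83.1 in MERKO and 692 ± 37.7 in WT (SD, n = 3 each). The libraries of Mybpc1 and Neb overlapped in both groups, so that their order is not set. Myom1 was at 167 ± 3.03 CPM per kb in MERKO and 179 ± 15.5 in WT, below every library of Neb. Myom3 was at 64.5 ± 11.5 CPM per kb in MERKO and 65.9 ± 2.67 in WT. Myom2 was at 30.8 ± 6.44 in MERKO and 42.4 ± 3.79 in WT, and Mybpc2 at 27.7 ± 5.16 in MERKO and 17.2 ± 5.55 in WT (CPM per kb; SD, n = 3 each). Myom2 and Mybpc2 overlapped in MERKO and did not overlap in WT. Obsl1 was at 4.34 ± 0.847 CPM per kb in MERKO and 3.74 ± 0.097 in WT. Mybph was lowest of the 9 on average, at 0.90 ± 0.75 CPM per kb in MERKO and 1.01 ± 1.41 in WT. With the length of the longest transcript in place of all exons, an alternative chosen after seeing the data, Myom2 moved to 53.6 ± 11.2 CPM per kb in MERKO and 74.0 ± 6.60 in WT. On that scale Myom2 overlapped Myom3, at 69.9 ± 12.4 in MERKO and 71.4 ± 2.90 in WT, in both groups.

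**Figure D1:**
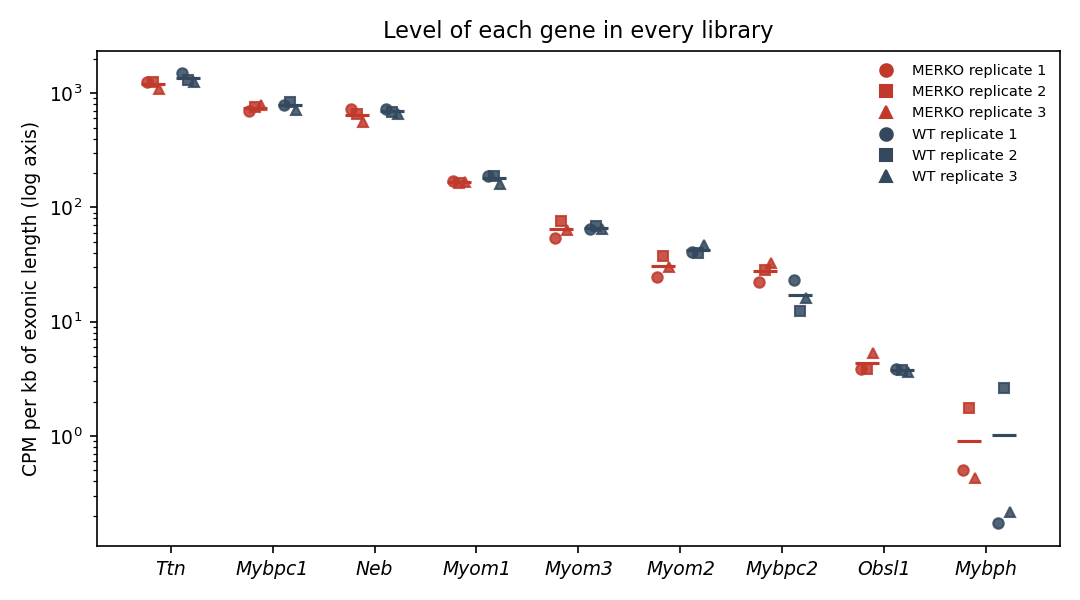
Level of each gene in CPM per kb of exonic length on a log axis, with MERKO libraries in red to the left of WT libraries in dark blue; symbols mark replicates and short lines the group means. Ttn lies at the top at 1201 CPM per kb in MERKO and 1348 in WT, and Mybph at the bottom is highest in replicate 2 of both groups.

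Nebulin, the protein along the thin filament, had 162206, 144892 and 119662 counts in MERKO and 145280, 133735 and 137780 counts in WT. Neb (ENSMUSG00000026950) lies on chromosome 2 from 52136647 to 52378474 on the minus strand, with 26582 exonic bases. In CPM it was at 19195, 17507 and 14816 in MERKO replicates 1, 2 and 3 and at 19460, 18287 and 17466 in WT replicates 1, 2 and 3. MERKO replicate 3 lay below all other libraries, and the groups overlapped. The log2 difference of MERKO minus WT was -0.10 ± 0.09 (SE), and without MERKO replicate 3 it was -0.0034. The ratio of Neb to Ttn, in counts per kb, was 0.537 ± 0.0345 in MERKO and 0.515 ± 0.0213 in WT (SD, n = 3 each). The ratios overlapped between groups.

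Obscurin-like 1, which binds titin and myomesin at the M-band, had the fewest counts of the M-band members. Obsl1 (ENSMUSG00000026211) lies on chromosome 1 from 75479310 to 75506452 on the minus strand. It had 275, 271 and 364 counts in MERKO and 242, 233 and 243 counts in WT. In CPM these were 32.5, 32.7 and 45.1 in MERKO and 32.4, 31.9 and 30.8 in WT. All MERKO values lay above all WT values, but MERKO replicates 1 and 2 were within 1 CPM of the highest WT library and the difference lay in MERKO replicate 3. The log2 difference was 0.21 ± 0.12 (SE) and was 0.04 without MERKO replicate 3.

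Myomesin 1, the general cross-linker of the M-band, made up most of the myomesin counts. Myom1 (ENSMUSG00000024049, chromosome 17, 71002633 to 71126856, plus strand) was at 1784, 1722 and 1742 CPM in MERKO and at 1967, 1969 and 1688 CPM in WT. The groups overlapped because WT replicate 3 was lowest of all 6, and the log2 difference was -0.10 ± 0.08 (SE). Of its exonic bases, 1.98% are shared with Myl12a on the opposite strand. Per kb, Myom1 took 63.9% ± 4.74 of the 3 myomesins in MERKO and 62.3% ± 2.65 in WT (SD, n = 3 each).

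Myom2, the M-protein of fast fibres and heart, was the lowest of the 9 in MERKO relative to WT. Myom2 (ENSMUSG00000031461, chromosome 8, 15057653 to 15133541, plus strand) had 1845, 2747 and 2153 counts in MERKO and 2697, 2573 and 3266 counts in WT. In CPM it was at 218, 332 and 267 in MERKO replicates 1, 2 and 3, and at 361, 352 and 414 in WT replicates 1, 2 and 3. All MERKO values lay below all WT values; MERKO replicate 1 was lowest and MERKO replicate 2 came close to the WT libraries. The mean in MERKO was 0.725 times the WT mean, and the log2 difference was -0.46 ± 0.15 (SE), with a 95% interval from -0.81 to -0.12. Leaving out 1 library at a time moved this difference between -0.63 (without MERKO replicate 2) and -0.33 (without MERKO replicate 1). Since lower Myom2 was a reason for choosing the group, these values describe it and do not test it.

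Myom3, a myomesin known mainly from intermediate fibres, overlapped between the groups. Myom3 (ENSMUSG00000037139, chromosome 4, 135759715 to 135815564, plus strand) was at 323, 461 and 384 CPM in MERKO and at 389, 417 and 389 CPM in WT. MERKO replicates 1 and 2 were the lowest and the highest of all 6 libraries, as replicate 1 was the lowest for Myom2 too. The log2 difference was -0.03 ± 0.11 (SE), and 0.09 without MERKO replicate 1. Within each library Myom2 had 0.461, 0.491 and 0.473 times the counts of Myom3 per kb in MERKO, against 0.634, 0.576 and 0.727 times in WT. All MERKO ratios lay below all WT ratios, and the MERKO ratios were close together although both genes varied widely between those libraries. Lower Myom2 was a reason for choosing the genes and Myom3 differed little, so the lower ratio largely repeats that choice. It was not set beside ratios between genes in general. The ratio of Myom2 to Myom1 per kb was 0.184 ± 0.0417 in MERKO and 0.239 ± 0.0438 in WT (SD, n = 3 each), with overlap between groups.

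The 2 myosin-binding C proteins, which brace the myosin filament and tune cross-bridges, stood at very different levels. Mybpc1, the slow form (ENSMUSG00000020061, chromosome 10, 88518279 to 88605152, minus strand), was at 3181, 3402 and 3538 CPM in MERKO and at 3597, 3758 and 3254 CPM in WT. The groups overlapped, and the log2 difference was -0.07 ± 0.08 (SE). Mybpc2, the fast form (ENSMUSG00000038670, chromosome 7, 44501699 to 44524656, minus strand), had 677, 848 and 946 counts in MERKO and 627, 326 and 456 counts in WT. In CPM Mybpc2 was at 80.1, 102 and 117 in MERKO replicates 1, 2 and 3 and at 84.0, 44.6 and 57.8 in WT replicates 1, 2 and 3. WT replicate 1 lay above MERKO replicate 1, so that the groups overlapped. The MERKO mean was 1.61 times the WT mean, and the log2 difference was 0.68 ± 0.29 (SE), with a 95% interval from -0.08 to 1.45. It was 0.96 without WT replicate 1 and 0.49 without WT replicate 2. Relative to Mybpc1 per kb, Mybpc2 had 0.0316, 0.0378 and 0.0415 times the counts in MERKO and 0.0293, 0.0149 and 0.0223 times in WT. On this ratio every MERKO library lay above every WT library. Exons of other genes cover 5.57% of the exonic bases of Mybpc1 and 5.32% of those of Mybpc2.

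**Figure D2:**
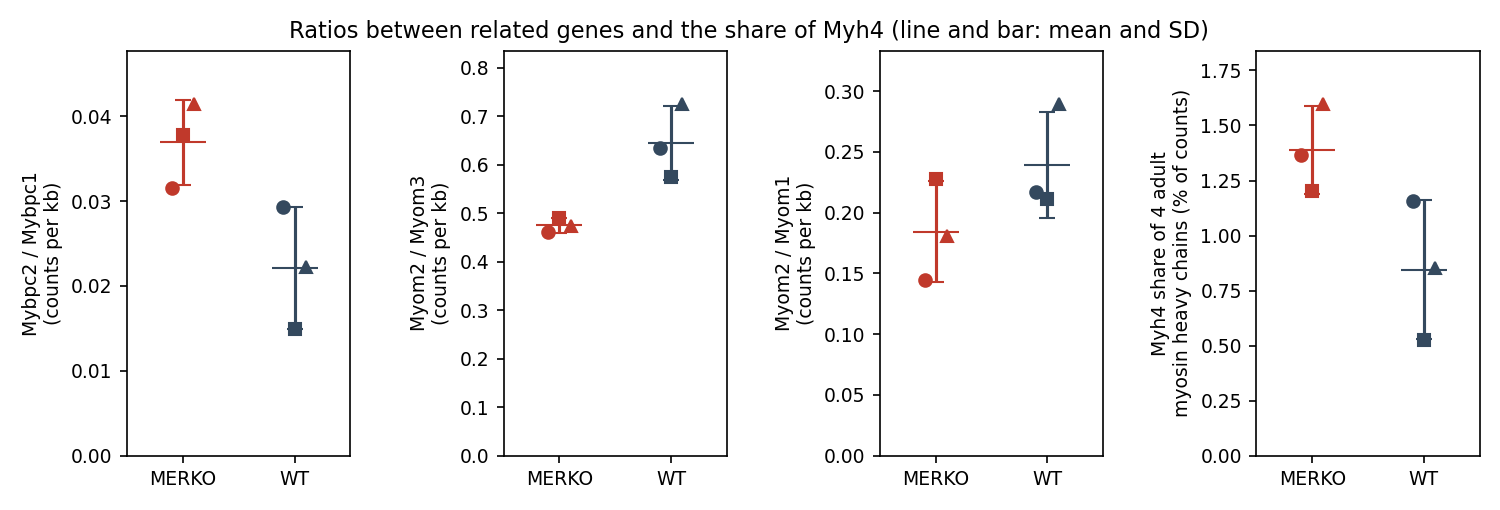
Ratios in counts per kb of Mybpc2 to Mybpc1, Myom2 to Myom3 and Myom2 to Myom1, and the share of Myh4 among 4 adult myosin heavy chains, with MERKO left of WT; circles, squares and triangles are replicates 1, 2 and 3, and lines and bars are means and SD. Mybpc2 to Mybpc1 is higher and Myom2 to Myom3 lower in every MERKO library than in every WT library, while Myom2 to Myom1 overlaps. Lower Myom2 in MERKO was a reason for choosing the genes.

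The fast form Mybpc2 and fast myosins were read side by side. Myh4, the myosin heavy chain of the fastest fibres, took 1.37%, 1.201% and 1.60% of the adult heavy chain counts in MERKO and 1.155%, 0.525% and 0.853% in WT. Within WT, replicate 1 was highest and replicate 2 lowest for both Mybpc2 and Myh4. Within MERKO the orders differed, since the lowest library was replicate 1 for Mybpc2 and replicate 2 for Myh4. Actn3, the alpha-actinin of fast fibres, was at 126, 129 and 144 CPM in MERKO and at 69.4, 36.5 and 47.5 CPM in WT. Myh2, the most abundant heavy chain on the fast list, was at 9694, 9360 and 9037 CPM in MERKO and at 10352, 10296 and 10493 CPM in WT. Of the 12 fast-fibre markers 4 lay wholly above WT, Actn3 among them, and 1 wholly below, Myh2. Over all genes tested 4.96% were wholly above and 5.45% wholly below. Among the 12 fast-fibre markers, 9 lay above and 3 below WT (median log2 difference 0.10) and 0 passed the adjusted threshold in the quasi-likelihood test, while the 2 genes that DESeq2 called were both on this list, Actn3 and Pvalb. The 12 markers summed to 24681 to 25248 CPM in MERKO and 23549 to 24832 CPM in WT, with Myh2 the largest part. Among the 10 slow-fibre markers, 4 lay above and 6 below WT (median -0.02) and 0 passed. Of these 10, 0 lay wholly above WT and 1 wholly below. Their summed level was 42943 to 46811 CPM in MERKO and 40451 to 47592 CPM in WT. The part of fibre type in the values of Mybpc2 and Myom2 was not tested.

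Mybph, a relative of the C proteins found in fast muscle, had few counts, and these came mostly from replicate 2 of each group. Mybph (ENSMUSG00000042451, chromosome 1, 134193448 to 134201232, plus strand) had 10, 34 and 8 counts in MERKO and 3, 45 and 4 counts in WT. The 95% Poisson interval, which covers counting error only, was 23.5 to 47.5 counts for MERKO replicate 2 and 32.8 to 60.2 for WT replicate 2, and in both groups it lay above the intervals of the other 2 libraries. Adora1, an adenosine receptor gene on the opposite strand, covers 49.9% of the exonic bases of Mybph. Adora1 had 10, 15 and 7 counts in MERKO and 4, 22 and 4 counts in WT, again highest in replicate 2 of each group. Whether strand was used in counting is not stated in the sources, so the counts of both genes are uncertain over the shared bases. Mybph was the only one of the 9 genes that did not pass the filter on low counts. Under looser filters its log2 difference was -0.13 (no filter beyond 1 read) and -0.14 (at least 1 CPM in 3 libraries). It ran from -0.63 to 0.19 in the leave-one-out fits in which Mybph passed the filter.

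**Figure D3:**
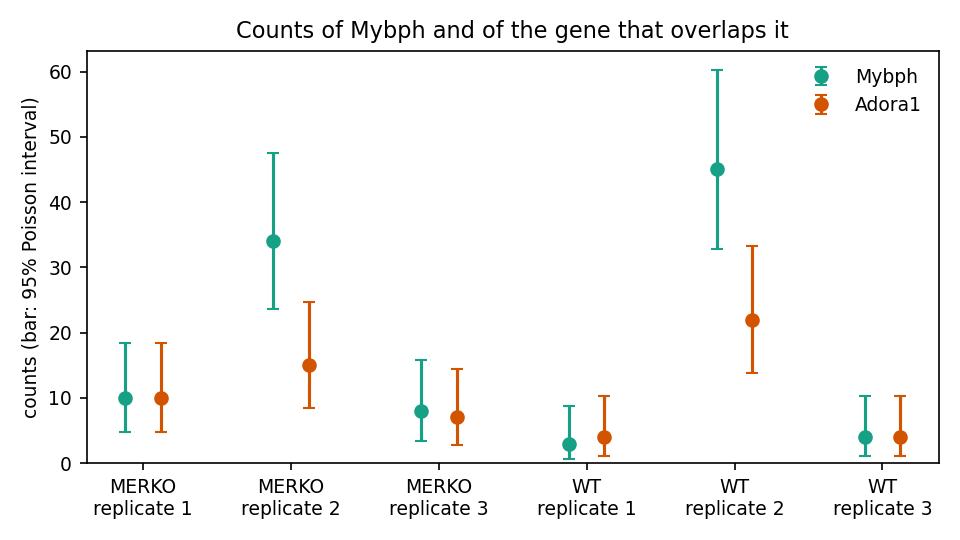
Counts of Mybph and of Adora1, the gene that overlaps it on the opposite strand, in each MERKO and WT library with 95% Poisson intervals. Both genes are highest in replicate 2 of each group, where Mybph reaches 34 counts in MERKO and 45 in WT.

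Counts over all genes are given as background to the members. In edgeR's quasi-likelihood test 0 of 13848 genes passed an adjusted p of 0.05 as higher (0.0%) and 0 as lower (0.0%) in MERKO, and 590 genes (4.26%) had an unadjusted p under 0.05. DESeq2 called 2 genes higher (0.0144%) and limma voom 1 higher (0.00722%). Without the filter on low counts 14 of 23953 genes were called higher (0.0584%) and 5 lower (0.0209%). Of the 8 members tested 2 were higher in MERKO (Mybpc2 and Obsl1) and 6 were lower, where 49.3% of all genes were higher and 50.7% lower. Their median log2 difference was -0.08, beside -0.0024 over all genes tested. The groups did not overlap for 1 member above WT (Obsl1) and 1 below (Myom2), where 4.96% of all genes were wholly above and 5.45% wholly below (10.4% in both directions). The contrast was used to choose the genes, and nothing is read from these counts. Mybpc2 had a log2 difference above that of 99.4% of the genes tested, and 2.06% of genes lay below Myom2.

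**Figure D4:**
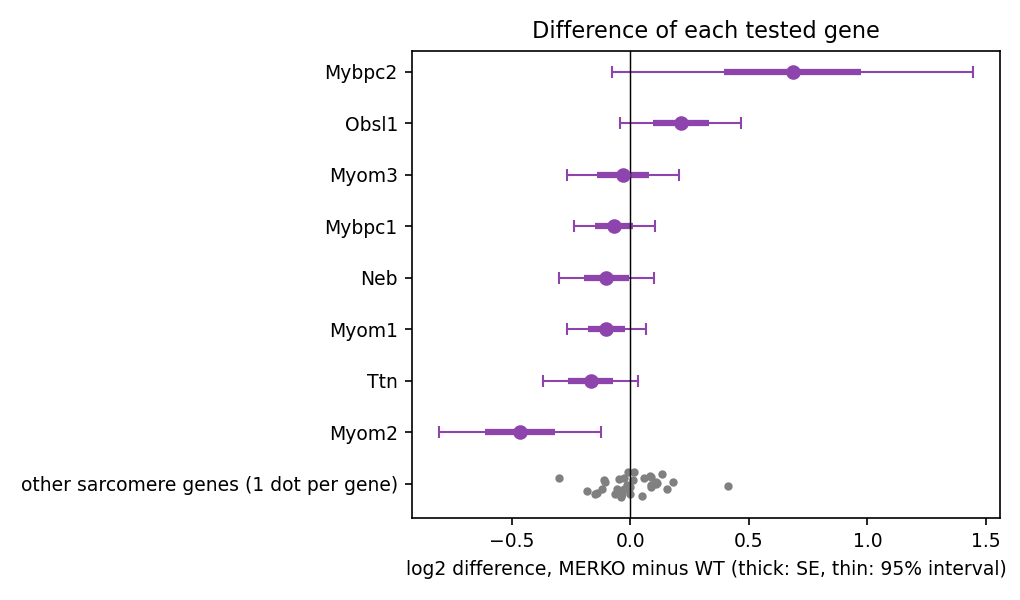
Log2 difference of MERKO minus WT for the 8 members tested, with the SE as a thick bar and the 95% interval as a thin bar, and below them 33 other sarcomere genes as dots. Mybpc2 at 0.68 and Myom2 at -0.46 lie farthest from 0, and the other 6 members lie between -0.17 and 0.21.

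Log2 differences also varied with the length of the transcript, and the members with the most exonic bases lie at the long end. Among the 275 tested genes with exons over 16 kb the median log2 difference was -0.07, beside -0.05 for the 2006 genes of 8 to 16 kb, -0.01 for the 4636 genes of 4 to 8 kb and 0.05 for the 1302 genes under 1 kb. Across 13220 genes with a length, which are not independent, the Spearman correlation of log2 difference with length was -0.186. Genes of at least 8 kb had a median deviation from their own mean of -0.01, -0.03 and -0.03 on the log2 CPM scale in MERKO replicates 1, 2 and 3 and of 0.04, 0.02 and 0.03 in WT replicates 1, 2 and 3. With a per-library trend on length removed, the log2 difference of Ttn was -0.0090 and that of Neb -0.0069, against -0.17 and -0.10 without the correction. That of Myom1 was -0.05, while Myom2 had -0.42 and Mybpc2 0.68. The trend was fitted over all genes with a length, Ttn and Neb among them, and Ttn lies at its long end. The deviation of long genes was below 0 in every MERKO library and above 0 in every WT library. A shift linked to length and a difference between genotypes therefore cannot be told apart here.

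**Figure D5:**
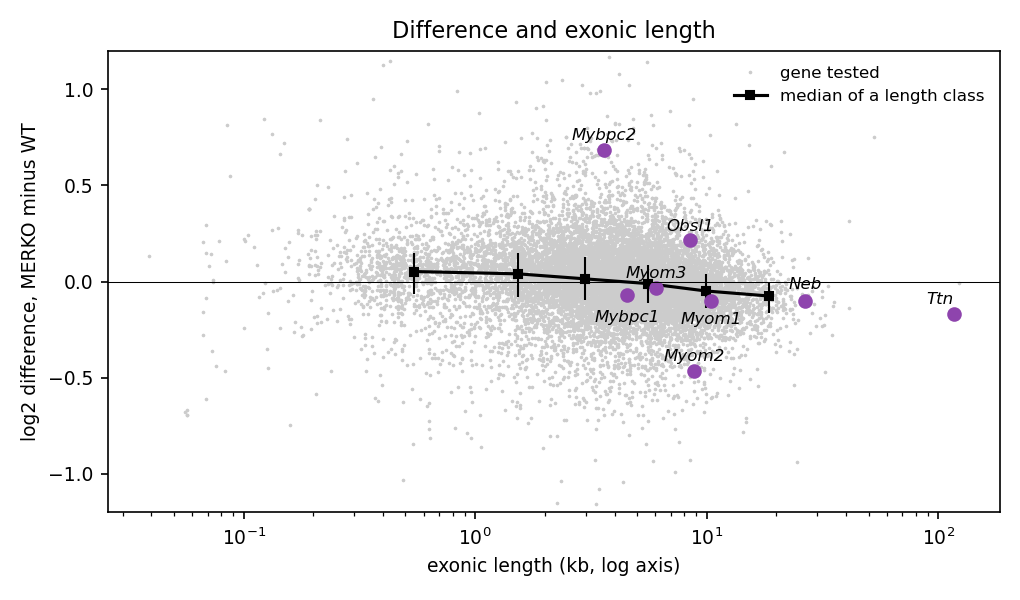
Log2 difference of MERKO minus WT against exonic length in kb (log axis) for all genes tested (grey), with the median and the middle quartiles of 6 length classes in black and the 8 members tested in purple; 6 genes lie outside the axis. The class medians run from 0.05 under 1 kb to -0.07 over 16 kb, Ttn at 117 kb and Neb at 26.6 kb lie near the end of that trend, and Myom2 and Mybpc2 lie far from it.

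Genes whose pattern over the 6 libraries was most like that of Ttn and Myom2 were ranked among 7409 other genes of at least 10 CPM, by the root mean square distance of log2 CPM centred on each gene's mean. Nearest to Ttn stood Ikbkb, a kinase of NF-kappaB signalling (0.028), Cmya5, a muscle protein that binds titin-associated partners (0.029), Gm13938 (0.030), Shmt2, a mitochondrial enzyme of serine metabolism (0.032), and Narg2 (0.033). Gm13938 is an antisense transcript within Ttn, with 453 bases of exon on both strands, and had 9660, 9794 and 8419 counts in MERKO and 10461, 8776 and 8799 counts in WT. Whether strand was used in counting is not stated, so these counts may include reads of Ttn. Among the 5 nearest to Myom2 were Aifm2 (0.0990), Tacc2 (0.104), Zfp410 (0.109) and Lemd3 (0.120). Tacc2, the most abundant of these, was at 520, 840 and 639 CPM in MERKO and at 810, 804 and 831 CPM in WT. Zfp410, at 12.5 to 18.6 CPM over the 6 libraries, and Lemd3, at 12.8 to 20.0, were also near the limit of 10 CPM. Neb was closer to Ttn (distance 0.0698) than any other member was, and Mybpc2 was farthest from Ttn (0.532).

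Other genes of the titin filament, M-band, thin filament and myosin filament showed no difference that passed. Of 36 listed genes 33 were tested: 16 were higher and 17 lower in MERKO, 0 passed in either direction over all genes, and 0 had an unadjusted p under 0.05 in the quasi-likelihood test. Their median log2 difference was -0.0017, and the groups did not overlap for 2 of the 33, both above WT. Over all genes tested the groups did not overlap for 10.4%, with 4.96% wholly above WT. The smallest p belonged to Trim63, the ubiquitin ligase MuRF1 that binds titin at the M-band, with a log2 difference of -0.30 ± 0.14 (SE), an edgeR quasi-likelihood p of 0.0587 and, adjusted over all genes, an edgeR p of 0.989. Sqstm1, the autophagy receptor p62 on the titin kinase pathway, had 0.16 ± 0.08 (SE). Then came Kbtbd13 at 0.41, a gene of nemaline myopathy, Ank1 at -0.15, an ankyrin of the sarcoplasmic reticulum, and Cmya5 at -0.14. Tcap, the cap of titin at the Z-disc, had a log2 difference of 0.13, Ckm, the creatine kinase of the M-band, 0.11, and Ankrd23, an ankyrin repeat protein of the titin spring, 0.11. Ckm was 1 of the 2 genes whose groups did not overlap, at 5268 to 5460 CPM in MERKO and 4784 to 5155 CPM in WT; the other was Trim54, the ligase MuRF3, at 175 to 180 CPM in MERKO and 160 to 173 CPM in WT, named after its values were seen. Speg, a striated muscle kinase, had a log2 difference of -0.06, and Nebl, the nebulin relative of heart, -0.05.

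Counts for genes of heart muscle were near 0 with 1 exception. Mybpc3, the cardiac C protein, had 0 counts in all 3 MERKO libraries and 1, 0 and 0 in WT. Nrap, a nebulin relative of muscle cell ends, is not on the heart list but was also near 0. It had 0 counts in all MERKO libraries and 1, 1 and 0 in WT, and the reason was not tested. The 95% Poisson interval of a count of 0 reaches 3.69 counts, for counting error only. Tnni3, Nppa, Nppb and Ryr2 had 0 to 3 counts per library in MERKO and 0 to 9 in WT, while Myh6 was at 2289 to 2606 CPM in MERKO and 2123 to 2589 CPM in WT; Myh6 is near-identical to Myh7 in sequence, and how reads matching both were counted is not stated in the sources used here. Summed markers of other cells overlapped between groups: adipocyte genes were at 281 to 318 CPM in MERKO and 260 to 343 CPM in WT, macrophage genes at 67.9 to 78.5 and 59.6 to 75.9 CPM, and endothelial genes at 200 to 237 and 223 to 249 CPM (MERKO and WT in each case). Fibroblast genes were at 603 to 665 CPM in MERKO and 559 to 749 CPM in WT. Smooth muscle genes were at 73.5 to 103 CPM in MERKO and 96.5 to 102 CPM in WT, Schwann cell genes at 20.8 to 41.4 and 26.5 to 40.7 CPM, and satellite cell genes at 2.05 to 3.55 and 2.19 to 3.30 CPM (MERKO and WT in each case). These sums hide single genes. The adipocyte sum was mostly Fabp4, with a log2 difference of -0.10, while 4 of the 6 adipocyte genes were above WT with a list median of 0.29. Plin1, a lipid droplet protein of adipocytes, was at 7.97 to 10.2 CPM in MERKO and 5.89 to 7.38 CPM in WT. Of the 5 macrophage genes 2 were above and 3 below WT, with a list median of -0.06. Mrc1, a macrophage receptor among those above, was at 26.9 to 29.5 CPM in MERKO and 15.5 to 26.0 CPM in WT. Of the 5 endothelial genes 1 was above and 4 below WT, with a list median of -0.11. Pecam1, an endothelial adhesion protein, was at 72.8 to 84.1 CPM in MERKO and 90.0 to 93.1 CPM in WT. None of Plin1, Mrc1 and Pecam1 passed the adjusted threshold in the quasi-likelihood test. No marker of these lists was at 0 in all 6 libraries. Their part in the members' values was not tested.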

How the data were processed

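Per the labels' protocols, Trizol was used for the RNA and an Illumina TruSeq kit for the libraries. TopHat 1.3.3, edgeR and mm10 are named, per the submitters' processing notes, with no role or order; the counter and the annotation release are not stated here. The authors deposited whole-number counts per Ensembl gene. They also deposited a log2 fold change, a log2 mean abundance and p-values, raw and adjusted, per gene, which were not used here.

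The table's 37506 rows held 29 repeats of an Ensembl ID with identical counts, which were merged. Positions and merged exon lengths came from GENCODE M21, which 32608 IDs matched. Genes were filtered with filterByExpr (13848 kept), scaled with TMM and tested two-sided with edgeR 4.0.16 in R 4.3.3 (robust quasi-likelihood F-test on genotype, Benjamini-Hochberg adjustment, threshold 0.05). The SE is the log2 difference divided by the square root of F. CPM uses TMM-scaled totals. Genes most like Ttn and Myom2 were ranked after adding 0.5 CPM. Alternatives were RLE, upper-quartile and no scaling, other filters, DESeq2 1.42.0, voom in limma 3.58.1, a replicate block, leaving out each library, totals without Ttn and removal of a length trend (lowess, span 0.3). The fits were tested on simulated data. Replicate pairs differed by more than sampling noise (chi-square per gene 3.46 to 9.57). Named were the members, Esr1, the 8 other sarcomere genes with the smallest p, Mybpc3, Nebl, Nrap and Speg, the 5 genes nearest to Ttn and to Myom2, and fibre-type and cell type markers; genes under this rule that are withheld are not reported here. The members and lists were chosen with earlier results of these data known.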

Additional observations from a re-analysis of the deposited data

How the results depend on the processing

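The count of 0 genes called became 19 without the filter on low counts (14 higher and 5 lower), 2 with DESeq2 and 1 with limma voom, and ran from 0 to 3 when 1 library was left out, the 3 coming without WT replicate 1; the cause was not tested. It stayed at 0 under the other alternatives run, and no gene of the other sarcomere list was called under any. The members' median log2 difference of -0.08 moved to -0.012 with the length trend removed and lay between -0.13 and -0.04 when a library was left out. Whether the shared replicate numbers pair the libraries was not settled. Deviations from group means correlated at -0.01, 0.16 and 0.04 for numbers 1, 2 and 3, and 0.16 was the highest of all pairs. Not every library correlated best with its own number. Deviations of 3 libraries from their own mean are tied to each other, so these values cannot decide the question. With a replicate block 0 genes were called and the members' median was -0.08. Of 128 alternative log2 differences for the 8 members tested, 1 moved by more than the spread between libraries. It was that of Ttn with the length trend removed (-0.0090). Of the 128, 2 changed sign, both for Myom3: 0.09 without MERKO replicate 1 and 0.0017 without WT replicate 2. Mybph and the levels per kb are not among the 128 values. With the longest transcript as length, levels in MERKO moved by more than their SD for Ttn, Neb, Obsl1, Myom1, Myom2 and Mybpc1. They did not for Myom3, Mybpc2 and Mybph. The members' share of counts, at a difference of -1.67 percentage points (MERKO minus WT), ran from -2.11 (without WT replicate 3) to -1.03 (without WT replicate 1). It was -1.72 and -1.79 with mitochondrial genes or IDs without a symbol out of the denominator. With mitochondrial genes out, the groups overlapped, as MERKO replicate 1 (18.7%) lay above WT replicate 3 (18.5%). Counting error limits Mybph most, at 3 to 45 counts per library. For Ttn, at 1030971 counts or more, the spread between libraries is far larger than counting error.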

Other observations

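Several sarcomere genes varied widely among the MERKO libraries in the order seen for Myom2 and Myom3, with replicate 1 lowest, replicate 3 between and replicate 2 highest. Of the 33 other sarcomere genes tested 14 (42.4%) had this order, beside 2567 of all 13848 genes (18.5%). Of the 9 members 2 (22.2%) had it, Myom2 and Myom3 themselves, from which the order was taken. It was chosen after the values were seen and no test was made. Ankrd2, a titin-spring protein that responds to muscle load, was at 442, 1406 and 748 CPM in MERKO replicates 1, 2 and 3 and at 727, 913 and 812 CPM in WT replicates 1, 2 and 3. Xirp1, an actin-binding protein found at sites of muscle damage, was at 198, 429 and 313 CPM in MERKO and at 259, 337 and 367 CPM in WT. Fhl1, a LIM-domain partner of titin, was at 2706, 4190 and 3282 CPM in MERKO and at 3362, 3756 and 3529 CPM in WT. For each of these 3 genes the WT libraries lay between the lowest and the highest MERKO library.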
